A study of Mus musculus with 5 samples.

Results

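This account follows 10 genes of the NF-κB system through a map of H3K27ac, the acetylation of histone H3 on lysine 27 that marks active promoters and enhancers. The genes were taken by name: the 5 subunit genes Nfkb1, Nfkb2, Rel, Rela and Relb, and the 5 inhibitor genes Nfkbia, Nfkbie, Nfkbiz, Tnfaip3 and Traf3, out of 21887 protein-coding genes. They were listed by name, with earlier results of these data known. H3K27ac was profiled by ChIPmentation, in which the Tn5 transposase adds sequencing adapters to immunoprecipitated chromatin. The cells were mouse bone marrow cells sorted as CD45.2+, lineage-negative, Sca1+ and Kit+, labelled HSC/MPP (haematopoietic stem cells and multipotent progenitors), and all libraries carry the genotype Mll3/4 deleted. The set comprised 4 libraries of H3K27ac and 1 of input. The labels used here name no Cre driver, age or treatment, and no control genotype was analysed here.

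NF-κB is a family of dimeric transcription factors that share a Rel homology domain and bind κB sites in DNA. In resting cells the IκB proteins hold the dimers in the cytoplasm. In the canonical branch, signals from cytokine, Toll-like and antigen receptors activate the IκB kinase, the IκBs are degraded and dimers containing RelA or c-Rel enter the nucleus. In the non-canonical branch, the kinase NIK drives processing of the Nfkb2 precursor, and its product pairs with RelB. Several inhibitors are themselves κB-driven genes, which gives the pathway its negative feedback. In blood, the pathway is known for its part in B-cell survival and maturation and in inflammatory activation of progenitors.

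The data were 1 deposited list of 22948 peaks for the 4 libraries together, so no value belongs to a single library. There was therefore no replicate error and no test, and differences between genes are given as values. Strength is the authors' signal value, read as the enrichment of H3K27ac over background at the peak, with a median of 3.27 over the list. The authors' −log10 q is given beside it, and 4859 peaks (21.2%) had a q-value above 0.05. Total read counts were not given, so the depth is unknown and a gene without a peak is not shown to lack H3K27ac. Among marker genes, a peak at a gene end was found for 2 of 3 genes of the sort (Kit and Ptprc, not Ly6a, which encodes Sca1). The count was 6 of 6 B-lineage, 0 of 4 T-lineage, 0 of 4 myeloid and 1 of 3 erythroid genes. Over all protein-coding genes, the share was 36.2%. Whether B-lineage cells in the sort contributed to the peaks described here was not tested.

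The bases before 5 of the starts are shown because they hold κB matches near the start that lie under an H3K27ac peak or beside one. The sequences are from RefSeq (GRCm38.p6) and run over the 250 bases before the start, 5′ to 3′ in the direction of transcription. Capitals mark matches to the κB consensus, a motif of 10 bases searched by that name on both strands. Overlapping matches are joined into one run of capitals. The stretches lie at chr19:46304487-46304736 (plus strand, Nfkb2), chr11:23770970-23771219 (minus strand, Rel), chr12:55492648-55492897 (minus strand, Nfkbia), chr10:19015411-19015660 (minus strand, Tnfaip3) and chr12:111166120-111166369 (plus strand, Traf3).
Nfkb2: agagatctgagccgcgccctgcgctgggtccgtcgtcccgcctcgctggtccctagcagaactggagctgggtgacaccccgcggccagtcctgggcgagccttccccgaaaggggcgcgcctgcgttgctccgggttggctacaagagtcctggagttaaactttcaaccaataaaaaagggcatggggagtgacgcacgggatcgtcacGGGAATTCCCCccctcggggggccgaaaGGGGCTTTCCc
Rel: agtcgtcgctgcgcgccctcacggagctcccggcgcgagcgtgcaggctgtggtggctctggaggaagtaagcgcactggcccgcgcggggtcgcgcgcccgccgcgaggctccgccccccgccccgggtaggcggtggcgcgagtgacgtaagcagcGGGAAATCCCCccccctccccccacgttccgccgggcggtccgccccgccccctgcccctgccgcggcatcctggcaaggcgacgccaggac
Nfkbia: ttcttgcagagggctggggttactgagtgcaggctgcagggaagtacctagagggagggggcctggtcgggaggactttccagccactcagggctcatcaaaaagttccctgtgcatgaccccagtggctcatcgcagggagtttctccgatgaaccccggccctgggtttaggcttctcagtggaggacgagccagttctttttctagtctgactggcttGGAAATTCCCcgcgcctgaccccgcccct
Tnfaip3: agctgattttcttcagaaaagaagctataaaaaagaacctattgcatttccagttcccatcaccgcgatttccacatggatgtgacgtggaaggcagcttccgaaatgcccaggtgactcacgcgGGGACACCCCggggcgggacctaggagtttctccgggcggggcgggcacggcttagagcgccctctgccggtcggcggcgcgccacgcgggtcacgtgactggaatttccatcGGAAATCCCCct
Traf3: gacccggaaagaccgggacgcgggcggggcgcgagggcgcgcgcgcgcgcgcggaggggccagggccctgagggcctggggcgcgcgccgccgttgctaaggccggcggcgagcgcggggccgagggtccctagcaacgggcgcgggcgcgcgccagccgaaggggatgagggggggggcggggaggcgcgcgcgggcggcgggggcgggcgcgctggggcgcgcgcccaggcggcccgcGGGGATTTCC

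The promoter table held 7 of the 10 genes, with 10 starts, and did not hold Nfkb1, Relb and Nfkbiz. Of these 7 genes, 6 had a κB match in the 250 bases before a start, as did 8 of the 10 starts, 3 of them at Nfkb2. Counted per start and not per gene, 7.25% of all 32851 starts of the table had a match. Among starts lying under a peak the share was 9.12%. Rela, which encodes the main activating subunit of the canonical branch, was the gene without one in this window, as was the inner start of Tnfaip3. A match describes letters in a window and not binding, and a window without one says nothing about the factor. The G and C content of the 10 windows ran from 46.4% to 85.2%, against a median of 52.4% over all starts. The shares were not matched for this content. Counted once where they overlap, the matches formed 10 stretches, of which 6 lay wholly inside an H3K27ac peak. Those inside were at Nfkb2 (3), Tnfaip3 (2) and Rel (1), and those outside were at Nfkb2 (1), Nfkbia, Nfkbie and Traf3.

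The subunit genes Nfkb1, Rel and Rela carried strong and wide H3K27ac at a gene end. Relb had a weak peak at an end, and the peak of Nfkb2 lay at a start inside the gene. An end peak is a peak that reached into the window of 1 kb to each side of one of the gene's ends. Of the 10 genes, 9 had such a peak, against 36.2% of all protein-coding genes. The count was 4 of 5 subunits and 5 of 5 inhibitors. With peaks of −log10 q of at least 5, it was 3 of 5 in each class, or 6 of 10 genes, against 24.0% of all protein-coding genes.

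At Rela, the end peak at chr19:5635947-5639453 had a signal value of 9.03 and a −log10 q of 29.3. It was 3507 bp wide and spanned the start of the gene from 1594 bp before to 1912 bp after it. Its signal value was higher than the strongest end peak of 90.3% of the 7929 genes that had one. Rel encodes c-Rel, a subunit best known from lymphoid cells. Its end peak at chr11:23769063-23772003 had a signal value of 8.79 (−log10 q 28.3) and a width of 2941 bp, and it covered the start and the κB run at 92 to 82 bp before it. Nfkb1 encodes the precursor of the subunit that pairs with RelA. Its end peak at chr3:135689149-135692446 had a signal value of 7.71 (−log10 q 22.5) and a width of 3298 bp, over the high-coordinate end of the gene.

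Relb, the partner of the processed Nfkb2 product, had the lowest value of the 9 genes when the strongest end peak of each was compared. It lay at chr7:19629175-19630006 over the high-coordinate end, with a signal value of 3.18 (−log10 q 2.94) and a width of 832 bp. That was below the end peaks of Rela, Rel and Nfkb1 in both strength and width, and 18.0% of genes with an end peak had a weaker one. Nfkb2 had no peak at either end of the gene as the gene table draws it. Its single peak, at chr19:46304649-46305536, lay inside the gene, 3655 bp from the nearer end, with a signal value of 4.34 (−log10 q 6.93). This peak covered the first of the 3 Nfkb2 starts in the promoter table, which lies 3743 bp inside the low-coordinate end. The start lay 88 bp from the edge of the peak, and the summit 338 bp after the start. Both κB runs shown above for Nfkb2, at 39 to 29 bp and 11 to 2 bp before the start, were inside the peak. The same peak reached the end window of the non-coding gene 4833438C02Rik, so the list cannot assign it to one of these starts. With promoter starts added to the gene ends, a choice made after these values were seen, 5 of 5 subunits had a peak, as did 10 of the 10 genes, against 38.7% of all protein-coding genes.

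**Figure D1:**
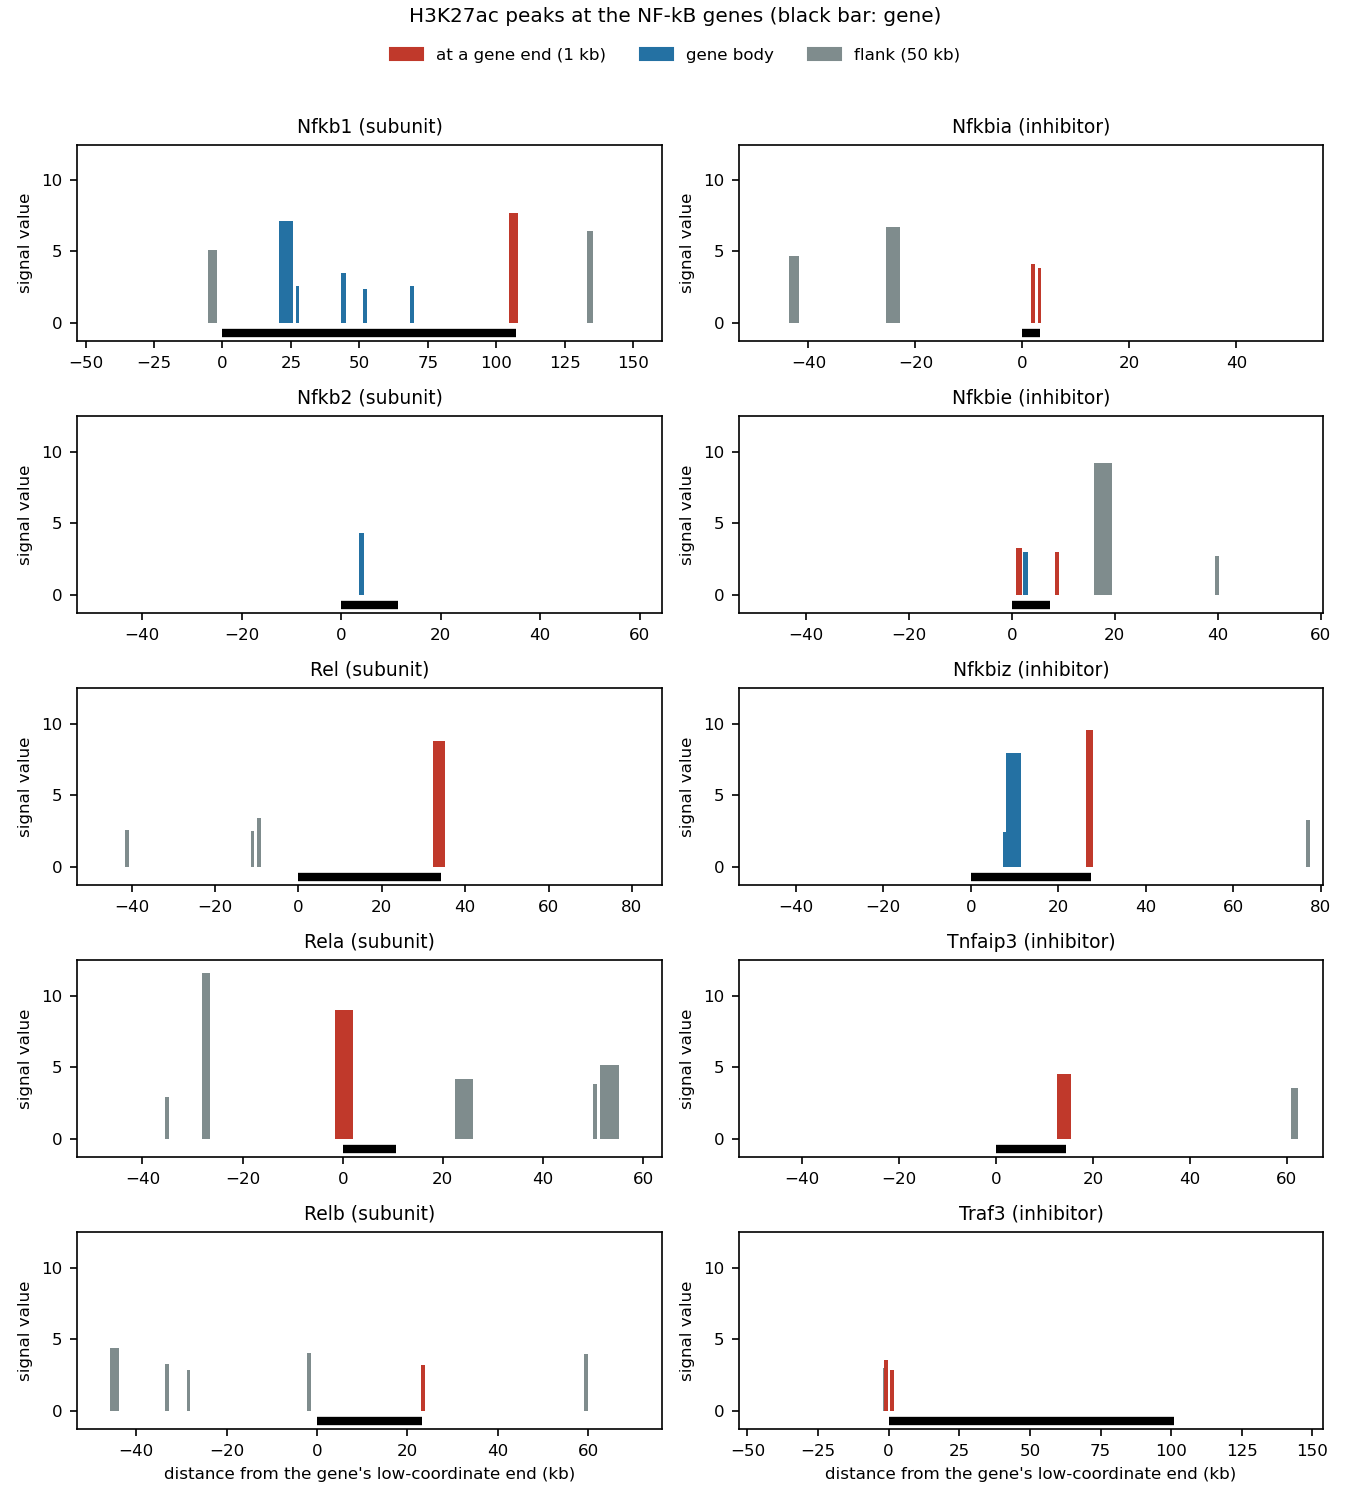
H3K27ac peaks around each NF-κB gene, with distance from the low-coordinate end in kb on the x axis and the authors' signal value on the y axis. Bars are peaks, drawn no narrower than a minimum width, and the black bar is the gene. Nfkb1 had 8 peaks and Nfkb2 1 peak, and the tallest bar, at 11.6 beside Rela, belongs to an end of Kat5.

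Among the inhibitors, Nfkbiz stood above the others in strength. It encodes an atypical nuclear IκB that can also act as a coactivator, and its end peak at chr16:55837724-55839367 had a signal value of 9.58 (−log10 q 32.3), the highest of the 10 genes. The peak covered the high-coordinate end of Nfkbiz and also reached the end window of its neighbour Nxpe3, and 92.6% of genes with an end peak had a weaker one. Tnfaip3 encodes A20, a ubiquitin-editing enzyme that shuts off signalling to the IκB kinase. Its end peak at chr10:19013477-19016299 had a signal value of 4.50 (−log10 q 7.63) and a width of 2823 bp, and covered the outer start from 889 bp before to 1933 bp after it. Both κB runs shown for Tnfaip3 were inside this peak.

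Nfkbia, Nfkbie and Traf3 had peaks close to the start that left the start itself uncovered. Nfkbia encodes IκBα, the classical rapid feedback inhibitor. It had a peak at chr12:55492227-55492526 (signal value 3.85, −log10 q 4.98) that began 121 bp after the start, and a second at chr12:55491046-55491829 (signal value 4.13, −log10 q 6.27). The first of these also reached an end of the non-coding gene Gm36634. The κB run of Nfkbia at 29 to 20 bp before the start lay on the other side of the start from both peaks. Nfkbie encodes IκBε, a slower feedback inhibitor. Its peak at chr17:45556596-45557709 (signal value 3.27, −log10 q 3.22) began 896 bp after the start. A further Nfkbie peak at chr17:45564051-45564719 (signal value 2.9965, −log10 q 2.16) was counted at the high-coordinate end from a distance of 882 bp and lay at an end of Slc35b2. Traf3 encodes an adaptor that keeps NIK low and so holds back the non-canonical branch. Its peaks at chr12:111164772-111165963 (signal value 3.54, −log10 q 4.43) and chr12:111166770-111167328 (signal value 2.87, −log10 q 2.16) lay on either side of the start, the second beginning 400 bp after it. The κB run that ends 1 bp before the Traf3 start fell in the gap between them.

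**Figure D2:**
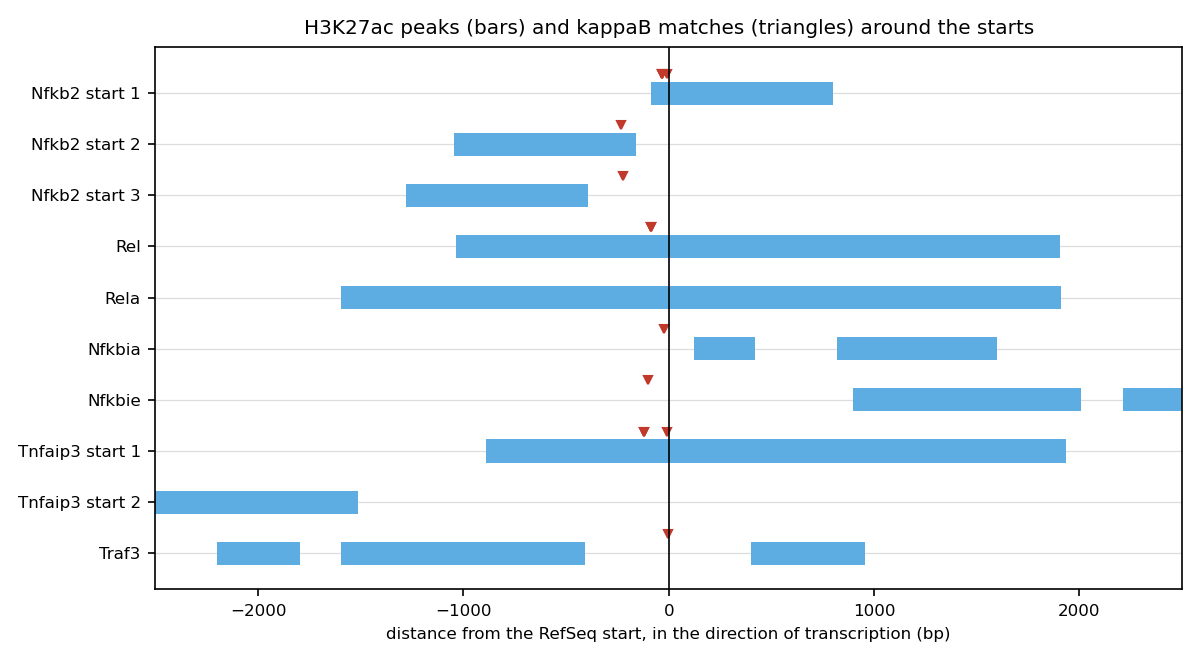
H3K27ac peaks (bars) and κB matches (triangles) around the 10 RefSeq starts of 7 NF-κB genes, with distance from the start in bp along transcription on the x axis and 1 row per start. The start lay under a peak in 4 rows (Nfkb2 start 1, Rel, Rela and Tnfaip3 start 1). In the rows of Nfkbia and Nfkbie, the nearest peak began after the start. For Traf3, peaks lay on either side of an uncovered start.

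A narrower criterion, chosen after these values were seen, asked whether the end base of a gene lay under a peak. It did so in 6 of the 10 genes, against 16.6% of all protein-coding genes. The 6 were the subunits Nfkb1, Rel, Rela and Relb (4 of 5) and the inhibitors Nfkbiz and Tnfaip3 (2 of 5). By the RefSeq starts, 4 of 10 starts lay under a peak, against 14.6% of all starts. Just inside the 1 kb limit were the Nfkbie peaks at 896 bp and 882 bp and the Nfkbia peak at 818 bp from an end. Just outside it were peaks of Traf3 at 1746 bp, Relb at 1759 bp and Nfkb1 at 1947 bp, which were counted as flank.

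The strongest signal value at an end had a higher median in the subunits than in the inhibitors, but the ranges overlapped over nearly their full extent. The median was 8.25 over the 4 subunits with an end peak (range 3.18 to 9.03) and 4.13 over the 5 inhibitors (range 3.27 to 9.58), a difference of 4.12. Over all genes with an end peak, the median was 4.71 (interquartile range 3.52 to 6.55). Nfkb1, Rel, Rela and Nfkbiz lay above that range, and Relb and Nfkbie below it. With the inner peak of Nfkb2 counted, the subunit median was 7.71 and the difference 3.58. The width of the strongest end peak had a median of 3119.5 bp in subunits (range 832 to 3507 bp). In inhibitors the median width was 1192 bp (range 784 to 2823 bp), so these ranges overlapped as well. Genes are not replicates, and no test of this difference was made.

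**Figure D3:**
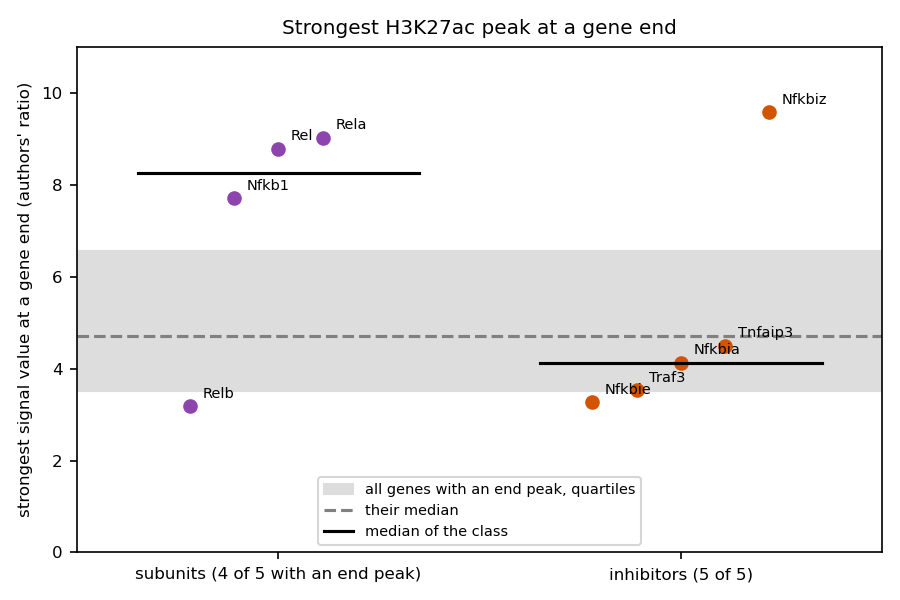
Strongest signal value at a gene end (y axis, the authors' ratio) for each subunit and inhibitor gene with an end peak, with class medians as black lines. The grey band and dashed line give the quartiles and median of all 7929 genes with an end peak. Nfkb1, Rel, Rela and Nfkbiz lie above the band.

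Nfkb1 had the most peaks inside the gene, and Nfkb1 and Nfkbiz had the strongest. A body peak overlapped the gene but not its end windows, and 4 of the 10 genes had at least 1, against 16.6% of all protein-coding genes. These were Nfkb1 with 5 peaks, Nfkbiz with 2, and Nfkb2 and Nfkbie with 1 each. Per 10 kb of gene the order was different, with 1.34 peaks for Nfkbie, 0.877 for Nfkb2, 0.725 for Nfkbiz and 0.466 for Nfkb1. The subunits had 6 body peaks over 186.8 kb of gene (0.321 per 10 kb), and the inhibitors 3 over 153.6 kb (0.195 per 10 kb). The density over all protein-coding genes was 0.0975 per 10 kb. The order of the classes did not hold without Nfkb1, when the subunits had 1 body peak over 79.4 kb (0.126 per 10 kb). It did not hold with peaks placed by their summit either, at 0.321 per 10 kb in subunits and 0.325 in inhibitors.

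The body peaks of Nfkb1 differed widely in strength. The strongest, at chr3:135605404-135610245, was 4842 bp wide, with a signal value of 7.13 and a −log10 q of 18.9, close to that of the end peak. It reached an end of the non-coding gene Gm46827. A second, at chr3:135627764-135629827, had a signal value of 3.51, and the other 3 ranged from 2.35 to 2.57, with 2 of them above a q-value of 0.05. Traf3, of nearly the same length (100835 bp against 107315 bp), had no body peak. Nfkbiz had a body peak of 3364 bp at chr16:55819390-55822753, with a signal value of 7.99 (−log10 q 23.4). It ranked 1317 among all 22948 peaks by signal value, against rank 641 for the end peak of Nfkbiz. With −log10 q of at least 5, these strong peaks of Nfkb1 and Nfkbiz and the Nfkb2 peak were the 3 body peaks kept, 2 in subunits and 1 in inhibitors. That is 3 of the 10 genes, against 7.34% of all protein-coding genes.

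**Figure D4:**
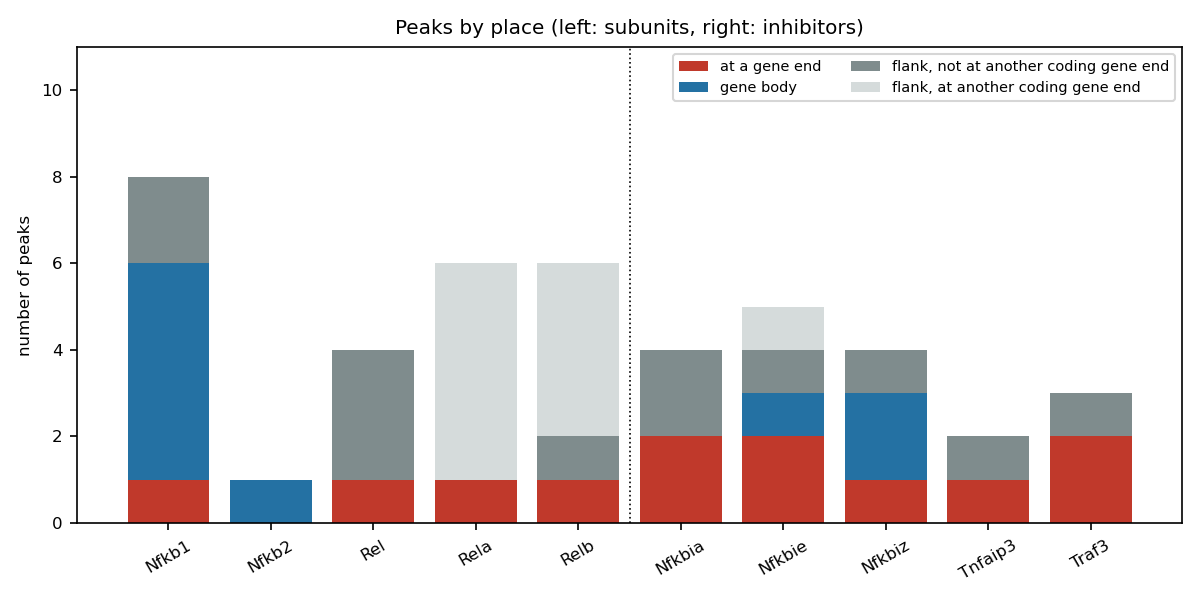
Number of H3K27ac peaks per gene (y axis) by place, for the 5 subunits on the left and the 5 inhibitors on the right. Nfkb1 held 5 of the 9 body peaks, and 9 of the 10 flank peaks at ends of other coding genes lay beside Rela and Relb.

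Within 50 kb beyond the genes, acetylated neighbours made up much of the count at the subunits, and peaks away from coding gene ends most of it at the inhibitors. Flank peaks were found at 9 of the 10 genes, all but Nfkb2, against 57.8% of all protein-coding genes. Peaks with −log10 q of at least 5 left 5 of the 10 genes with a flank peak, against 40.5%. The subunits had 15 (median 3 per gene) and the inhibitors 7 (median 1), beside a median of 1 per protein-coding gene in general. Of these, 9 of the 15 and 1 of the 7 lay at an end of another protein-coding gene, which leaves 6 in each class. With 25 kb in place of 50 kb, the difference of the class medians was 0. All 5 flank peaks of Rela lay at ends of neighbours, the strongest at Kat5 (signal value 11.6, rank 247) and the others at Rnaseh2c, Sipa1, Pcnx3 and Map3k11. At Relb, 4 of 5 did, at Gemin7, Zfp296, Clasrp and Clptm1. Nfkb2 had no flank peak although 5 other coding genes have an end in its flanks.

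The inhibitor Nfkbia had its strongest peak outside the gene. No protein-coding gene has an end within 50 kb of Nfkbia, and peaks lay at chr12:55463901-55466429 (signal value 6.70, −log10 q 17.1) and chr12:55445753-55447701 (signal value 4.71, −log10 q 8.34). Their summits were 24.0 kb and 42.5 kb beyond the low-coordinate end, which is the downstream side of this minus-strand gene. Both were stronger than the peaks inside Nfkbia (3.85 and 4.13) and wider, at 2529 and 1949 bp against 300 and 784 bp. Nfkb1 had flank peaks on both sides. The one at chr3:135717798-135719955 had a signal value of 6.43 (−log10 q 15.4) and its summit 26.9 kb beyond the high-coordinate end, and the one at chr3:135579225-135582708 had a signal value of 5.08 and its summit 3.26 kb beyond the low-coordinate end.

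The remaining flank peaks were weaker, apart from one at a neighbour. Tnfaip3, also without a coding neighbour in reach, had a peak at chr10:19061820-19063109 (signal value 3.58) with its summit 47.3 kb beyond its start side, at an end of the non-coding gene Gm51814. Rel had 3 flank peaks with signal values of 2.48 to 3.43, all inside Pus10, and 2 of them were above a q-value of 0.05. Nfkbie had a strong peak at Hsp90ab1, a chaperone gene (signal value 9.24), and a weak one of 2.72 inside Slc29a1. Nfkbiz had a peak of 3.30 inside Nxpe3, 49.0 kb from the gene, just inside the 50 kb limit. The list does not tie a distal peak to a gene, so nearness is the sole link given here.

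The other genes of the pathway were described from lists by role. Promoter starts inside these genes were not added to the gene ends. A gene counted without an end peak may therefore have a peak at an inner start, like Nfkb2. Of 63 genes, 35 had a peak at an end (55.6%, against 36.2% of all protein-coding genes). The count was 11 of 12 adaptors, 9 of 11 kinases and scaffolds, 9 of 12 further brakes and 5 of 12 receptors. It was 1 of 16 among target genes that NF-κB induces in inflammation. Peaks with −log10 q of at least 5 left 27 of the 63 genes with an end peak, against 24.0% of all protein-coding genes.

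Most signalling adaptors had an end peak of moderate strength. Their median strongest signal value was 4.04, against 4.71 over all genes with an end peak, and the end base lay under a peak in 6 of 12, against 16.6% of all protein-coding genes. The strongest were the ubiquitin ligase gene Birc2 (signal value 10.8), Traf1 (9.55) and Birc3 (5.57), and Traf5 had no end peak. Among kinases and scaffolds, Map3k14, which encodes NIK, had a signal value of 9.34, Map3k7, which encodes TAK1, 7.65 and Ikbkb, a catalytic subunit of the IκB kinase, 6.24. Tab3 and Prkcb had none. Among further brakes, the strongest were Tax1bp1, an A20 partner (14.1), the ribonuclease gene Zc3h12a (10.8) and the deubiquitinase gene Cyld (7.44), and Bcl3, Tnip1 and Tnip3 had none. Tnip1, which encodes another A20 partner, nonetheless had 5 body peaks over 52170 bp of gene.

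Receptors had end peaks at 5 genes and lacked them at 7, and of the induced targets 15 had none. Tlr4 had a signal value of 7.50, Tnfrsf1a 5.94 and Tlr2 4.31, while Cd40, Ltbr, Tnfrsf13c and Tnfrsf13b were among the receptors without an end peak. Among induced targets, the mitochondrial superoxide dismutase gene Sod2 had a weak end peak (3.30). The cytokine genes Tnf, Il6, Il1a and Il1b had none. The survival gene Bcl2l1, 75072 bp long, had 13 body peaks without one at an end.

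**Figure D5:**
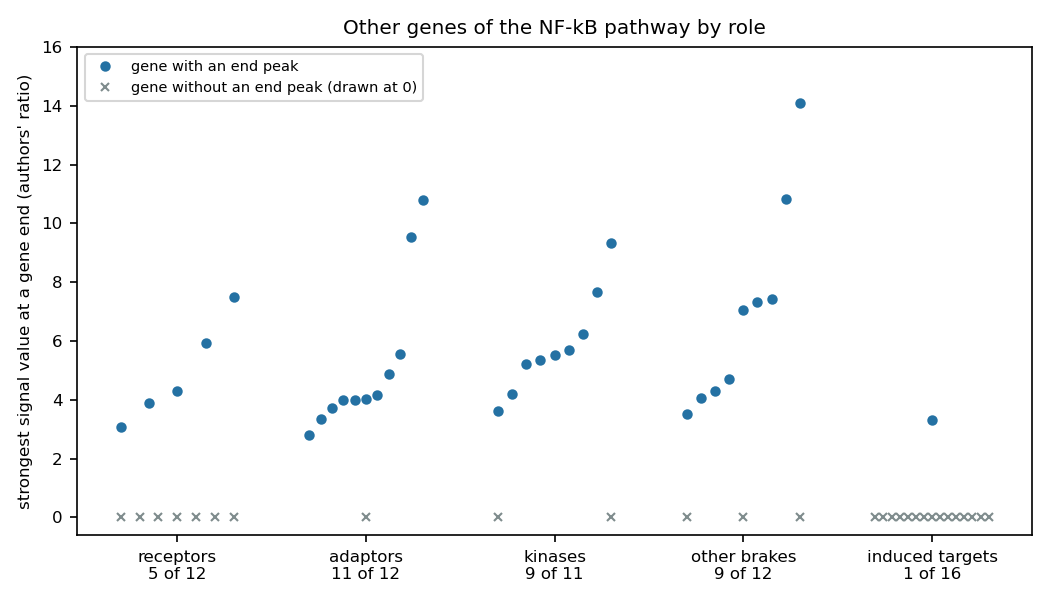
Strongest signal value at a gene end (y axis, the authors' ratio) for 63 other genes of the NF-κB pathway by role. Points are genes with an end peak and crosses, drawn at 0, are genes without one. Adaptors had an end peak in 11 of 12 genes and induced targets in 1 of 16.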

How the data were processed

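Per the submitters' processing notes, BWA and MACS2 were used with the mm10 build; versions and parameters are not given in the sources used here. The file, which has no header, is by its name an overlap set of H3K27ac peaks over input. Its deposited columns hold a score, a signal value read as the authors' enrichment ratio, and the authors' −log10 p and −log10 q. Deposited positions count from 0 and are printed from 1. Gene ends came from a RefSeq table (GRCm38.p6) without strand or exons, so exons, introns and UTRs were not assigned. Starts and strands came from a RefSeq promoter table holding 7 of the 10 genes.

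Peaks were placed with Python 3.11.15 and pandas 2.3.3, as end (overlap with 1 kb around an end), body or flank (50 kb), and the placing was checked on made-up peaks. All 10 genes are named. Of each pathway role, the 3 genes with the strongest end peak and up to 4 without one, in list order, are named; Tnip1 and Bcl2l1 counts, non-coding genes and genes around flank peaks were chosen after their values were seen. A gene of the pathway lists is not reported here and was left out of the counts. Members and lists were chosen with earlier results of these data known. Alternatives were stricter peak lists, other windows and joined peaks. The depth per library is unknown and limits all values.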

Additional observations from a re-analysis of the deposited data

How the results depend on the processing

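Of 77 recomputed values, 54 stayed within 1.5 times the reported one, 23 moved further and 0 changed direction. Most of them are counts, which cannot change direction, and only the median differences could. The order of the classes in body peaks per 10 kb was not among these values. By summit that order did change, at 0.321 in subunits and 0.325 in inhibitors. With −log10 q of at least 5, inhibitors with an end peak went from 5 to 3, body peaks of subunits from 6 to 2 and of inhibitors from 3 to 1, genes with a flank peak from 9 to 5, and flank peaks of subunits from 15 to 8 and of inhibitors from 7 to 3. With a signal value of at least 4, these values were 3, 2, 1, 5, 7 and 3. At that signal value, 23.2% of all protein-coding genes had an end peak and 39.2% a flank peak. Both settings keep fewer peaks by construction. Body peaks of inhibitors were 5 by the summit and 1 with peaks joined at 1 kb or less. Flank peaks of subunits and inhibitors were 5 and 3 with 25 kb, 27 and 17 with 100 kb, and those of subunits 6 without peaks at other gene ends. The median number of flank peaks, inhibitors minus subunits, was -2 as reported, -1 with a q-value of at most 0.05, -1 with joined peaks, and 0 with 25 kb or without peaks at other gene ends. Genes with an end peak ranged from 6 to 9 and the median difference in end signal from 4.07 to 4.29 under the stricter lists, the wider window and placement by summit. With promoter starts added to the gene ends, which was chosen after the values were seen, they were 10 and 3.58. For the wider window and placement by summit, the share over all protein-coding genes is not given here. No paired analysis was possible because the deposited columns give no value per library, and no library could be left out for the same reason.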
